A study of Mus musculus with 27 samples.

Results

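The cardiac transcription factors that direct heart development were followed through postnatal life in RNA-Seq counts of mouse cardiac fibroblasts and whole hearts. The 10 genes are Gata4, Gata6, Nkx2-5, Tbx5, Tbx20, Mef2a, Mef2c, Mef2d, Hand1, and Hand2. They were taken by symbol, and all 10 were found among the 22855 genes counted in both tissues. All animals were C57Bl/6 mice, with no transgene or treatment named. Fibroblasts were sorted by flow cytometry for surface PDGFRα, a receptor of the fibroblast lineage, after hearts had been digested. Whole hearts were extracted as tissue, so each of those samples mixes every cell type of the organ. There were 12 fibroblast samples (3 at postnatal day 1, 3 at 4 weeks, and 2 per later age) and 15 from whole hearts (3 per age). The later ages were 1.5 years, 1 year, and 14 weeks. The study's methods describe the hearts of an age as separate animals and the fibroblast samples as isolated from different hearts. Its results section states that the fibroblasts came from hearts that were themselves sequenced. The labels tie no sample to an animal, so the main comparisons between the tissues treated the samples as independent and ignored such pairs.

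These genes encode the core set of DNA-binding proteins of the heart field and the forming heart tube. GATA4 and GATA6 are zinc finger proteins, NKX2-5 a homeodomain protein, TBX5 and TBX20 T-box proteins, MEF2A, MEF2C, and MEF2D MADS-box proteins, and HAND1 and HAND2 basic helix-loop-helix proteins. In cardiomyocytes they bind one another and activate genes of the sarcomere and of calcium handling. Several of them are also made outside the myocyte. Gata4, Tbx20, and Hand2 are active in the epicardium and in cells derived from it, from which many cardiac fibroblasts descend. Combinations that contain Gata4, Mef2c, and Tbx5, with or without Hand2, are used to turn fibroblasts into cells with myocyte features.

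RefSeq start sites on GRCm38.p6 were at hand for 6 of the 10 genes, Hand2, Mef2a, Mef2c, Mef2d, Nkx2-5, and Tbx20. The 250 bases upstream of the start are shown for Tbx20 and Hand2, which fell after birth in both tissues, and for Nkx2-5, which separated the tissues most. Each is written 5′ to 3′ on the strand of its gene. Capitals mark a match, on either strand, to one of 4 motifs that these factors can bind: the GATA motif AGATAA, the T-box motif AGGTGT, the NK2 motif TNAAGTG, and the MEF2 consensus.
Tbx20, chr9:24774304-24774553, minus strand: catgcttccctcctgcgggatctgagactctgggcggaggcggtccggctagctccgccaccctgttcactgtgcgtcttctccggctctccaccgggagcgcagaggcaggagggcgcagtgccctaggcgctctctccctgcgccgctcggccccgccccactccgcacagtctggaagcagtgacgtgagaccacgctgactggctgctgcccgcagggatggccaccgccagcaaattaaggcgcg
Hand2, chr8:57320733-57320982, plus strand: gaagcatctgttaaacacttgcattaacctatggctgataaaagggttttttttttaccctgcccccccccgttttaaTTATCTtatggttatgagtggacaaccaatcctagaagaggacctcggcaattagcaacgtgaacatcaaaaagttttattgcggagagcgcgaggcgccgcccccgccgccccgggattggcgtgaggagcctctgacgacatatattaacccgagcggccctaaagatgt
Nkx2-5, chr17:26841566-26841815, minus strand: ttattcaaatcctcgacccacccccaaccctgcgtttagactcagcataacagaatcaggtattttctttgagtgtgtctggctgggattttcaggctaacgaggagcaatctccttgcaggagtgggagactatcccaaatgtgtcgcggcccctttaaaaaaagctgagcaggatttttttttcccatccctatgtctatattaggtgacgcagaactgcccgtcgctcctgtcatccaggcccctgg
The window of Hand2 held 1 GATA match, on the opposite strand and beginning 172 bases before the start, and the windows of Tbx20 and Nkx2-5 held a match to none of the 4. Of 32851 RefSeq windows of this length, 9.99% held a GATA match, 11.8% a T-box match, 10.1% an NK2 match, and 2.92% a MEF2 match. The E-box CANNTG bound by helix-loop-helix proteins such as the HAND factors, is too common to mark, being present in 66.2% of windows. It occurred 2 times in the Hand2 window, 1 time in that of Nkx2-5, and not in that of Tbx20. Such matches describe the letters only and say nothing about binding. The RefSeq start used for Nkx2-5 lies inside the gene as annotated in GENCODE M21 (chr17:26838664-26845009), which extends further upstream. Its window is thus not the sequence before the start of that longer annotation.

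Libraries held between 46091271 and 76758831 counts. Levels are given as CPM, counts relative to the library total, after TMM scaling of all 27 libraries together, so that both tissues are on one scale. The summed level of 7 fibroblast markers was 16280 to 34530 CPM in the sorted samples and 770.1 to 1571 CPM in whole hearts. The summed level of 10 cardiomyocyte markers was 47530 to 149000 CPM in whole hearts. In fibroblasts that sum was 682.8 to 752.9 CPM at postnatal day 1 and 18.35 to 201.7 CPM at later ages. The summed level of 9 endothelial markers was 316.9 to 1819 CPM in the sorted samples and 687.3 to 1543 CPM in whole hearts. It varied within an age, at 316.9 and 1413 CPM in the fibroblast samples of 1.5 years. At 4 weeks it was 654.5, 563.8, and 1819 CPM in replicates 1, 2, and 3. Fibroblasts of 14 weeks, at 1368 and 1583 CPM, lay above the hearts of that age (916.1 to 999.3 CPM). The summed level of 6 macrophage markers in fibroblasts was 93.5 to 179.7 CPM at postnatal day 1. It was 219.4 to 335.5 CPM at 4 weeks and 21.15 to 33.4 CPM at 14 weeks. The part of endothelial or macrophage RNA in the fibroblast values was not tested. There were 3 whole heart libraries that stood apart in how counts followed transcript length or base composition, picked after the data were seen. These were replicate 2 of 4 weeks and replicates 2 and 3 of 1.5 years. Replicate 1 of 4 weeks lay far out in the other direction for length and was kept. Its Spearman's rho across genes with transcript length was 0.452, where the next highest among hearts was 0.27. Among fibroblasts both samples of 14 weeks stood apart in base composition, with fewer counts for transcripts of high GC content (Spearman's rho across genes with GC content -0.307 and -0.303, against 0.00854 to 0.133 in the other 10). Since they are the whole group of that age, no value without them can be given. In all 3 libraries of 1.5 years longer transcripts had fewer counts (Spearman's rho across genes of each library's log2 deviation with transcript length -0.27, -0.47, and -0.52), against 0.22, 0.17, and 0.27 at 14 weeks. These are correlations across genes within a library, and genes are not independent replicates. Values without the 3 heart libraries, and with offsets that remove the trends with length and GC content, are given beside the results they touch. The summed level of 10 immediate early and heat shock genes, Fos and Jun among them, also differed. It was 10410 to 35790 CPM in fibroblasts and 163.4 to 600.4 CPM in whole hearts. In fibroblasts it was 10410 to 14440 CPM at postnatal day 1 and 23320 to 25530 CPM at 4 weeks, without overlap. The part of such a response in the fibroblast values was not tested. Xist and Y-linked transcripts differed between the ages although the labels give no sex, so the sex of the animals and their age cannot be told apart.

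In the GENCODE M21 annotation of GRCm38, the assembly to which the authors mapped, all 10 are protein-coding genes. The GATA genes lie at chr14:63198922-63271692 (Gata4) and chr18:11052064-11085635 (Gata6). Nkx2-5 lies at chr17:26838664-26845009. The T-box genes lie at chr5:119832668-119885219 (Tbx5) and chr9:24718138-24774303 (Tbx20). The MEF2 genes lie at chr7:67231163-67372858 (Mef2a), chr13:83504034-83667080 (Mef2c), and chr3:88142372-88172086 (Mef2d), and the HAND genes at chr11:57828705-57832818 (Hand1) and chr8:57320983-57324633 (Hand2). Counts are whole-gene counts and do not separate exons or isoforms. Gata6, Mef2a, Mef2d, and Hand2 overlap another annotated gene. For Gata6, Mef2d, and Hand2 it is a noncoding gene on the opposite strand, and for Mef2a it is Lysmd4 on the opposite strand and unclassified genes on its own. Whether counting used strand is not given in the sources used here, so reads from such pairs cannot be told apart. Each overlapping gene that was counted had a lower mean than its partner in every group. In any one sample 1010001N08Rik, opposite Gata6, reached at most 24.2 CPM, Lysmd4, opposite Mef2a, at most 27.9 CPM, and 1700113A16Rik, opposite Mef2d, at most 5.2 CPM.

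Between postnatal day 1 and 4 weeks, most of the members that changed fell. In fibroblasts Gata4, Gata6, Tbx20, and Hand2 fell and Mef2a rose. In whole hearts Gata6, Tbx20, and Hand2 fell, Hand1 went to 0 counts, and no member rose. Called members were thus 5 of the 9 tested in fibroblasts, where 15.5% of all genes tested were called (9.28% higher and 6.2% lower), and 4 of 10 in whole hearts, where the share was 18.2% (12.1% higher and 6.1% lower). Hand1 passed the filter on low counts in hearts only through postnatal day 1, the group where it was high, and without it 3 of 9 members were called there. Calls are at an adjusted p under 0.05 in edgeR's quasi-likelihood F test. In bulk RNA, fewer cells of a type and less RNA per cell cannot be told apart. The median log2 fold change of the members tested was -0.68 in fibroblasts, against 0.0039 over all genes, and -0.37 in whole hearts without Hand1, against -0.087.

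From 4 to 14 weeks edgeR called no member in either tissue, against 3.87% of all genes in fibroblasts and 1.61% in whole hearts. At an unadjusted p under 0.05 there were 0 members in fibroblasts and 2 in whole hearts, and DESeq2 also called 0 in each. From 14 weeks to 1 year edgeR again called 0, against 1.78% and 0.972% of all genes, with 3 members at an unadjusted p under 0.05 in each tissue and 1 call by DESeq2 in each. From 14 weeks to 1.5 years, 1 of 9 members was called in fibroblasts and 5 of 10 in whole hearts (5 of 9 without Hand1). The fibroblast gene was Gata6, which rose (background 2.72% of all genes, 1.91% higher), and the 5 heart genes were all lower (background 12.8%, 7.86% lower). These counts moved with the setting. In fibroblasts 0 members were called with the length and GC offsets and 3 by DESeq2, and in hearts 2 with the offsets and 0 without the 3 libraries that stood apart. The difference between the tissues in this step, a test added after the data were seen, was called for 1 of the 10, Gata6. Hand1, at 0 counts in hearts of both ages, gave no test of it. Over the whole span, from day 1 to 1.5 years, 3 of 9 members were lower in fibroblasts (16.3% of all genes called, 9.86% higher and 6.46% lower) and 6 of 10 in whole hearts (31.8%, 15.6% higher and 16.3% lower), or 5 of 9 without Hand1. Any difference among the 5 ages was called for 5 of 9 members in fibroblasts (19.9% of all genes) and for 9 of 10 in whole hearts (34.3%), all but Mef2c. Without Hand1 the latter were 8 of 9. The fibroblast counts over the whole span and among the 5 ages include Nkx2-5. It passed the filter there through the younger ages, where it was high, so its calls are no test of a change. In fibroblasts Mef2a was not called among the ages with the offsets (adjusted p = 0.352). Fibroblasts had only 2 samples at each of the last 3 ages.

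**Figure D1:**
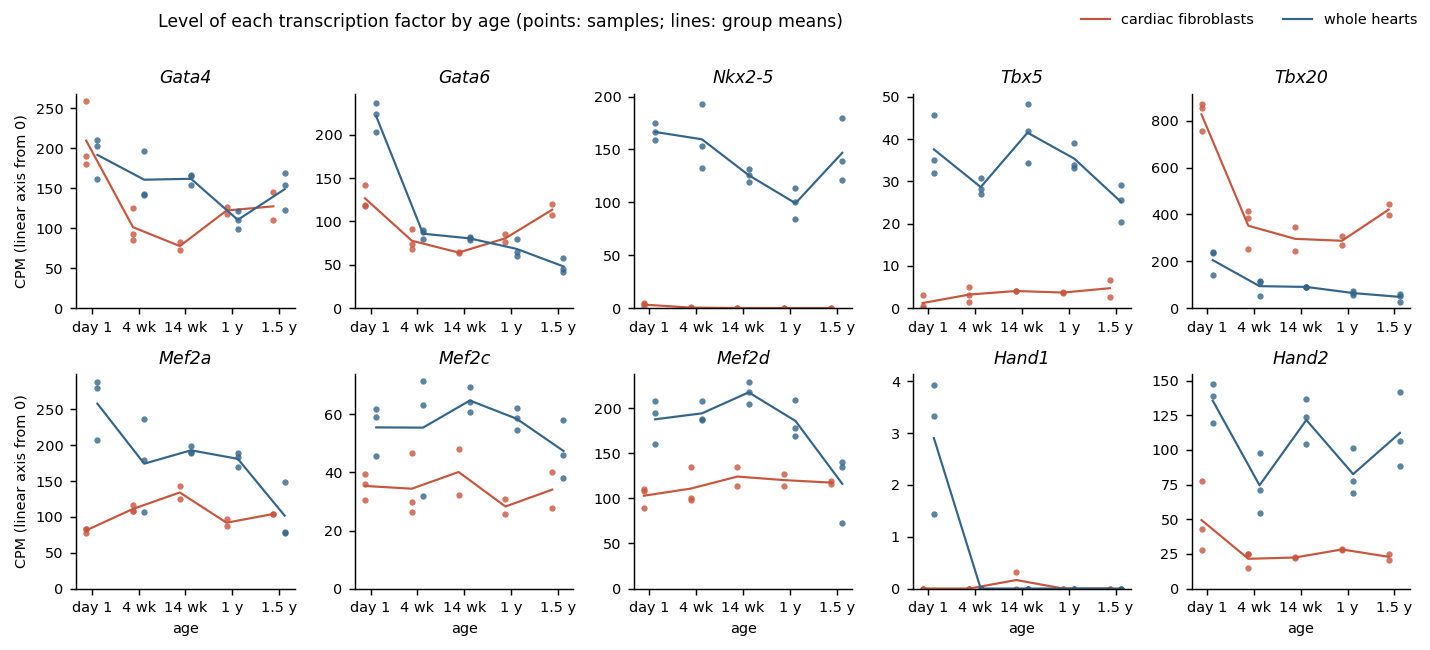
Level of each of the 10 genes in every sample (points, CPM on a linear axis from 0) at the 5 ages, with lines through the group means, in cardiac fibroblasts (n = 3, 3, 2, 2, 2) and whole hearts (n = 3 per age). Tbx20 was higher in fibroblasts at every age, Nkx2-5 and Tbx5 were higher in whole hearts, and the lines of Gata6 crossed with age.

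Gata6 moved in opposite directions in the 2 tissues late in life. In whole hearts it was at 203.1, 223.5, and 237.1 CPM at postnatal day 1, and at 79.6, 87.6, and 90.3 CPM at 4 weeks. It was at 78.0, 80.8, and 82.3 CPM at 14 weeks, at 60.5, 64.6, and 79.8 CPM at 1 year, and at 41.6, 44.7, and 57.9 CPM at 1.5 years. The samples of postnatal day 1 lay above all later ones and those of 1.5 years below all earlier ones. The log2 fold change was -1.34 by 4 weeks (SE 0.15, adjusted p = 8.48e-06) and -2.23 by 1.5 years (SE 0.16, adjusted p = 3.48e-08). Both falls held without the 3 libraries that stood apart, at -1.40 and -1.93. The fall from 14 weeks to 1.5 years (log2 fold change -0.80, SE 0.15, adjusted p = 0.00323) was not called without them (-0.47, adjusted p = 0.211), although it was called with the length and GC offsets (-0.68, adjusted p = 0.0240).

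In fibroblasts Gata6 was lowest at 14 weeks. It was at 118.3, 119.4, and 142.2 CPM at postnatal day 1, at 68.0, 74.2, and 91.0 CPM at 4 weeks, and at 63.2 and 64.9 CPM at 14 weeks. It then stood at 76.0 and 85.0 CPM at 1 year and at 107.2 and 119.8 CPM at 1.5 years. The oldest samples overlapped those of postnatal day 1, and the 14-week samples, the pair of libraries with fewer counts at high GC content, were the lowest. Its longest transcript has a GC content of 56.5%. The step from 4 to 14 weeks was not called, and with the length and GC offsets it was -0.11 (adjusted p = 0.908). The fall to 4 weeks was called (log2 fold change -0.68, SE 0.13, adjusted p = 0.00372). The rise from 14 weeks to 1.5 years was 0.79 (SE 0.16, adjusted p = 0.0253). That rise was positive but not called without either sample of 14 weeks or either of 1.5 years (log2 fold change 0.72 to 0.85, adjusted p 0.0801 to 0.237), nor with library size scaling (0.60, adjusted p = 0.0665) or the length and GC offsets (0.58, adjusted p = 0.265).

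The difference between the tissues in the change of Gata6 from 14 weeks to 1.5 years was estimated as an interaction in the joint fit. This interaction was added after the data were seen. It was 1.57 on the log2 scale, fibroblasts minus hearts (SE 0.24, adjusted p = 0.000711). Hand1, at 0 counts in hearts of both ages, gave no test here. The interaction was called for 1 of 10 members, against 2.71% of all genes (1.91% higher). It was called in all 34 settings run, which did not include the replicate block. Without the 3 libraries it was 1.29 (adjusted p = 0.0155), and with the length and GC offsets 1.23 (adjusted p = 0.0199). Over the whole span the order of the tissues turned. Fibroblasts were at 57.2% of the heart level at postnatal day 1 (log2 fold change -0.80, SE 0.15, adjusted p = 0.000152) and at 236% at 1.5 years (1.24, SE 0.16, adjusted p = 1.28e-06). At 4 weeks, 14 weeks, and 1 year the tissues were not distinguished (adjusted p 0.145 to 0.502), although DESeq2 called hearts higher at 14 weeks (-0.40, adjusted p = 0.0316) and library size scaling called fibroblasts higher at 1 year (0.60, adjusted p = 0.00499).

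Gata4, the closest relative of Gata6 on the list, fell early in fibroblasts. Its samples were at 180.3, 189.7, and 258.3 CPM at postnatal day 1, at 85.7, 92.7, and 125.1 CPM at 4 weeks, and at 72.4 and 82.7 CPM at 14 weeks. They were at 118.0 and 125.9 CPM at 1 year and at 109.8 and 144.7 CPM at 1.5 years. The groups of day 1 and 4 weeks did not overlap, and the 14-week samples were again the lowest. Its GC content is 57.4%, and with the offsets the steps into and out of 14 weeks were -0.18 from 4 weeks (adjusted p = 0.828) and 0.35 to 1 year (adjusted p = 0.703). The log2 fold change to 4 weeks was -1.03 (SE 0.18, adjusted p = 0.00147), and it was called in every alternative. Over the whole span it was -0.73 (SE 0.20, adjusted p = 0.0245), which was lost without replicate 5 of 1.5 years (-0.56, adjusted p = 0.234) or replicate 1 of day 1 (-0.55, adjusted p = 0.0697).

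In whole hearts the mean of Gata4 moved between 110.3 ± 11.05 CPM at 1 year and 191.5 ± 25.8 CPM at postnatal day 1 (SD, n = 3). The 5 ages differed (adjusted p = 0.0142), but no pair of ages compared was called. For the early step the log2 fold change was -0.23 (SE 0.16, adjusted p = 0.369). The difference between the tissues in this step was -0.80 (SE 0.26, adjusted p = 0.0659), so an early fall particular to fibroblasts was not shown. Fibroblasts had 48.0% of the heart level at 14 weeks (log2 fold change -1.06, SE 0.21, adjusted p = 0.000285) and 63.0% at 4 weeks (-0.67, adjusted p = 0.00572). At 4 weeks the call was lost without the libraries that stood apart (-0.40, adjusted p = 0.0982), and with library size scaling both were lost (adjusted p = 0.213 and 0.165). At the other 3 ages the tissues overlapped.

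Nkx2-5, which marks committed cardiac muscle cells, was a whole heart transcript. Heart samples lay between 83.8 and 192.8 CPM at all ages. Fibroblasts had 185, 344, and 271 counts at postnatal day 1, which is 1.99, 4.42, and 3.497 CPM. They had 4, 87, and 32 counts at 4 weeks, 2 and 12 at 14 weeks, 0 and 0 at 1 year, and 0 and 1 at 1.5 years. At the depth of these libraries the later values are near or at the limit of detection, set at 3 counts per library. Against that limit the heart level at 1 year was at least 2420-fold higher than that of fibroblasts, and the fibroblast level of postnatal day 1 at least 80.4-fold higher than that of 1 year. These limits cover counting error only.

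At postnatal day 1 Nkx2-5 in fibroblasts was 1.98% of the heart level (log2 fold change -5.66, SE 0.53, adjusted p = 1.17e-08). In the same 3 samples the median of the 10 cardiomyocyte markers was 1.16% to 1.34% of the heart level, and Nkx2-5 was 1.19% to 2.66%. At 4 weeks the markers were at 0.0679% to 0.210% and Nkx2-5 at 0.0295% to 0.635%. From 1 year on the markers were at 0.0186% to 0.129%, with 0 to 2 of the 10 at 0 counts, and Nkx2-5 was at most 0.00926%. The part of cardiomyocyte RNA in the fibroblast values was not tested. The fall of Nkx2-5 from day 1 to 1.5 years was called in fibroblasts (adjusted p = 0.0352), though not without either sample of 1.5 years (adjusted p = 0.186 and 0.118), nor without replicate 2 or 3 of day 1 (0.0737 and 0.0617). That from day 1 to 4 weeks was not (log2 fold change -2.77, SE 1.55, adjusted p = 0.250). In fibroblasts Nkx2-5 passed the filter on low counts through the younger ages, where it was high. Its calls between ages there are therefore no test of a change, and the counts are given as a description.

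In whole hearts Nkx2-5 was highest at postnatal day 1, at 166.5 ± 8.05 CPM, and lowest at 1 year, at 99.2 ± 14.8 CPM (SD, n = 3). The means of the other ages were 159.7 CPM at 4 weeks, 125.7 CPM at 14 weeks, and 146.8 CPM at 1.5 years. The 5 ages differed (adjusted p = 0.0128), and no step between ages was called. The change from day 1 to 4 weeks differed between the tissues (log2 difference -2.73, SE 0.65, adjusted p = 0.0108), the only member called in this interaction, against 7.14% of all genes (3.96% lower). It was not called with the replicate number as a block (-3.09, adjusted p = 0.0838).

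**Figure D2:**
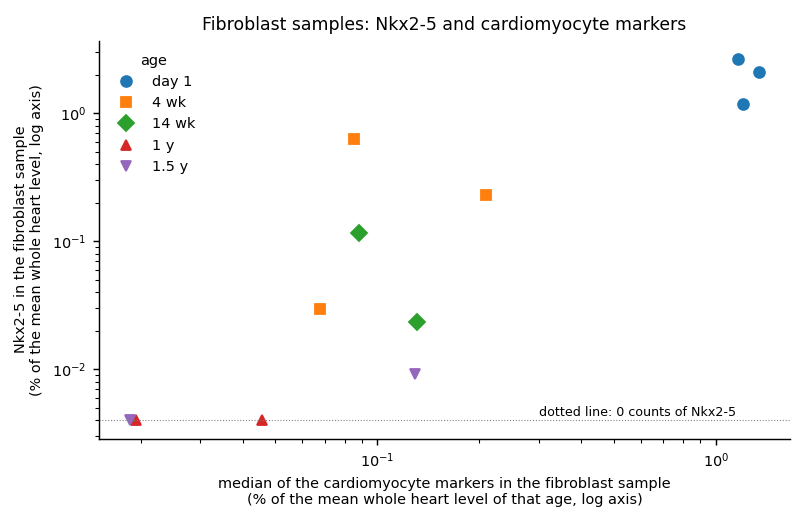
Each point is 1 of the 12 fibroblast samples. The horizontal axis is the median of 10 cardiomyocyte markers and the vertical axis is Nkx2-5, each as a percentage of the mean whole heart level of the same age, on log axes. The 3 samples of postnatal day 1 are highest on both axes, and the 3 samples with 0 counts of Nkx2-5 are drawn on the dotted line.

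Tbx20 was the member that stood highest in fibroblasts. It encodes a T-box protein that acts mainly as a repressor. Fibroblasts had 756.5, 854.3, and 872.5 CPM at postnatal day 1 and 254.5, 386.0, and 415.1 CPM at 4 weeks. They had 245.1 and 346.8 CPM at 14 weeks, 267.7 and 307.6 CPM at 1 year, and 396.1 and 445.6 CPM at 1.5 years. All samples of postnatal day 1 lay above every later sample, and the later ages overlapped in part. The log2 fold change to 4 weeks was -1.21 (SE 0.18, adjusted p = 0.000534), and that from day 1 to 1.5 years -0.98 (SE 0.21, adjusted p = 0.00515). The first was called in every alternative, and the second in all but that without replicate 5 of 1.5 years (adjusted p = 0.0517).

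Whole hearts showed the same early step at a lower level. Tbx20 was at 140.2, 234.0, and 241.0 CPM at postnatal day 1 and at 53.4, 112.8, and 115.2 CPM at 4 weeks, where replicate 2, one of the libraries that stood apart, was the lowest. It was at 88.2, 91.6, and 91.7 CPM at 14 weeks, 55.5, 66.1, and 71.0 CPM at 1 year, and 28.2, 53.3, and 62.1 CPM at 1.5 years. Neither the oldest nor the 1-year samples reached the level of 14 weeks. The early fall was -1.11 on the log2 scale (SE 0.30, adjusted p = 0.0158), and -0.85 without the 3 libraries (adjusted p = 0.00505). It was not called without replicate 2 of 4 weeks alone (-0.82, adjusted p = 0.0540) or replicate 2 or 3 of day 1 (adjusted p = 0.0583 and 0.0603). It was not distinguished from that in fibroblasts (log2 difference -0.11, SE 0.39, adjusted p = 1). At 1.5 years against day 1 the log2 fold change was -2.13 (SE 0.31, adjusted p = 6.52e-05), -1.72 without the 3 libraries, and -0.96 with the length and GC offsets (adjusted p = 0.000253). The late fall, from 14 weeks, was called at -0.97 (adjusted p = 0.0428), but it was -0.02 with the offsets (adjusted p = 0.991) and -0.54 without the 3 libraries (adjusted p = 0.291). Tbx20 has the longest annotated transcript of the 10 genes, 9091 bases.

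Fibroblasts exceeded whole hearts in Tbx20 at all 5 ages, with no overlap at any. The ratio of the means was 4.04, 3.75, 3.27, and 4.48 over the first 4 ages in order, and 8.79 in the oldest samples. The log2 fold change ranged from 1.71 (SE 0.30, adjusted p = 7.43e-05) at 14 weeks to 3.14 (SE 0.31, adjusted p = 1.79e-08) at 1.5 years. It was positive and called at every age in every alternative, with the smallest value, 0.94, at 14 weeks with the length and GC offsets. With those offsets the value at 1.5 years was 1.78. Tbx20 was the only member called higher in fibroblasts at the first 4 ages.

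Tbx5, a T-box activator that patterns the atria and left ventricle, was low in fibroblasts and varied widely between samples. At postnatal day 1 the 3 fibroblast samples had 278, 2, and 45 counts, which is 2.99, 0.0257, and 0.581 CPM. Later samples lay between 1.55 and 6.74 CPM, and the 5 ages were not distinguished (adjusted p = 0.715). The day 1 samples overlapped those of 4 weeks. Whole hearts had means of 37.55 ± 7.28, 28.6 ± 1.86, 41.5 ± 6.93, 35.35 ± 3.28, and 25.1 ± 4.39 CPM from the youngest to the oldest age (SD, n = 3). Hearts were higher than fibroblasts at every age, by log2 fold changes of -4.96 (SE 0.76, adjusted p = 1.43e-05) at day 1 to -2.42 (SE 0.79, adjusted p = 0.0175) at 1.5 years, fibroblasts against hearts. The last was not called without the libraries that stood apart (adjusted p = 0.130) or without fibroblast replicate 5 of 1.5 years (-1.89, adjusted p = 0.172). In hearts the level at 1.5 years was below that at 14 weeks (-0.78, SE 0.19, adjusted p = 0.0138) and below that at day 1 (-0.62, SE 0.19, adjusted p = 0.0214). Neither was called without heart replicate 1 of the earlier age (-0.66, adjusted p = 0.0755, and -0.40, adjusted p = 0.162). Nor was either called with the length and GC offsets, at -0.38 (adjusted p = 0.321) and -0.21 (adjusted p = 0.516). Without the 3 libraries the later fall was -1.02 (adjusted p = 0.0510) and that over the whole span -0.88 (adjusted p = 0.0242).

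**Figure D3:**
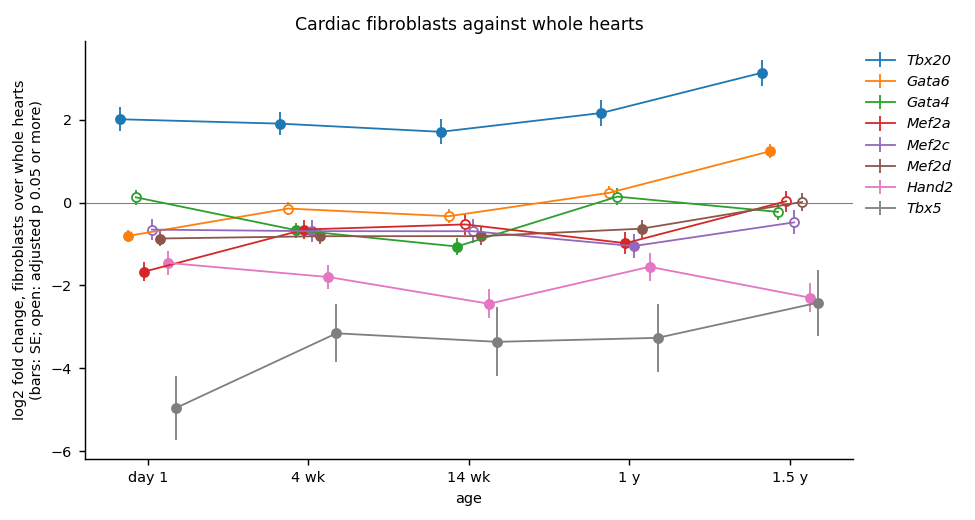
Log2 fold change of fibroblasts over whole hearts at each age, with SE, for 8 genes. Filled points passed an adjusted p under 0.05. Tbx20 stayed above 0 at every age, Hand2 and Tbx5 stayed below 0, and Gata6 went from below 0 at day 1 to above 0 at 1.5 years. Nkx2-5 and Hand1 are left out because of samples at 0.

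The 3 MEF2 genes, whose products activate muscle structural genes and respond to calcium signals, differed from one another. Mef2a was the only member that rose from postnatal day 1 to 4 weeks in fibroblasts, from 77.4, 82.6, and 83.4 CPM to 108.3, 108.5, and 116.6 CPM (log2 fold change 0.48, SE 0.12, adjusted p = 0.0124). The groups did not overlap, but the rise was not called with the length and GC offsets (0.25, adjusted p = 0.186). It was at 125.5 and 142.6 CPM at 14 weeks, the highest of the fibroblast samples, then at 87.3 and 96.4 CPM at 1 year (-0.61, SE 0.14, adjusted p = 0.0502) and at 103.5 and 104.7 CPM at 1.5 years. Mef2a has a GC content of 42.0%, and its highest samples were again the 14-week libraries that stood apart in base composition. With the offsets the step from 4 to 14 weeks was 0.03 (adjusted p = 0.993) and that from 14 weeks to 1 year -0.21 (adjusted p = 0.707). In whole hearts Mef2a was at 206.6, 279.3, and 288.2 CPM at day 1 and at 77.9, 78.7, and 148.7 CPM at 1.5 years. Those ages did not overlap, and the 2 lowest samples were the libraries that stood apart. The log2 fold change was -1.38 (SE 0.27, adjusted p = 0.000921), -0.79 without the 3 libraries (adjusted p = 0.0125), and -0.53 with the offsets (adjusted p = 0.00380).

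After 14 weeks Mef2a in whole hearts fell (log2 fold change -0.98, SE 0.27, adjusted p = 0.0236), and Mef2d likewise (-0.96, SE 0.20, adjusted p = 0.00556). Mef2d hearts were at 204.7, 218.4, and 229.6 CPM at 14 weeks and at 73.05, 135.3, and 140.1 CPM at 1.5 years, without overlap. Without the 3 libraries neither was called, at -0.38 (adjusted p = 0.390) and -0.63 (adjusted p = 0.0917). With the offsets Mef2d was called at -0.48 (adjusted p = 0.0400) and Mef2a was not, at -0.31 (adjusted p = 0.180). At 1.5 years Mef2d hearts were also below those of day 1 (-0.73, SE 0.20, adjusted p = 0.0109), which was not called without the 3 libraries (-0.42, adjusted p = 0.143) or with the offsets (-0.24, adjusted p = 0.162). In fibroblasts Mef2d stayed between 89.5 and 135.0 CPM in all 12 samples, and its ages were not distinguished (adjusted p = 0.691). Over the whole span the change differed between the tissues for Mef2a (log2 difference 1.70, SE 0.34, adjusted p = 0.00157) and for Mef2d (0.88, SE 0.28, adjusted p = 0.0395). The interaction over this span was added after the data were seen. Hand1, at 0 counts in fibroblasts of both ages, gave no test of it. The interaction was called for 4 of 10 members (Gata6, Nkx2-5, Mef2a, and Mef2d), against 13.6% of all genes (7.88% higher and 5.77% lower). The median of the interaction over all genes was 0.32. That of Mef2d was called in only 12 of 34 settings, and not without the libraries that stood apart (0.50, adjusted p = 0.325). That of Mef2a was then 1.04 (adjusted p = 0.0135).

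Mef2c was not called in any comparison of ages in either tissue. Fibroblasts had means between 28.3 ± 3.52 CPM (SD, n = 2) at 1 year and 40.2 ± 11.1 CPM (SD, n = 2) at 14 weeks. Whole hearts had means between 47.4 ± 9.99 CPM (SD, n = 3) at 1.5 years and 64.8 ± 4.37 CPM (SD, n = 3) at 14 weeks. With the length and GC offsets, however, Mef2c in hearts was higher at 1.5 years than at day 1 (0.77, adjusted p = 0.000798), whereas it was -0.26 (SE 0.24, adjusted p = 0.445) without them. With library size scaling it was lower (-0.86, adjusted p = 0.0112). Hearts were higher than fibroblasts in Mef2d at the first 4 ages, and fibroblasts had 54.9% to 64.7% of the heart level. At 1 year that call was kept in 22 of 35 settings. At 1.5 years the tissues had nearly the same level of Mef2a and Mef2d, and fibroblasts were at 102% and 101% of hearts. The log2 differences were 0.03 (SE 0.25) and 0.02 (SE 0.21). With the offsets they turned to -0.80 (adjusted p = 6.09e-05) and -0.79 (adjusted p = 0.000146).

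**Figure D4:**
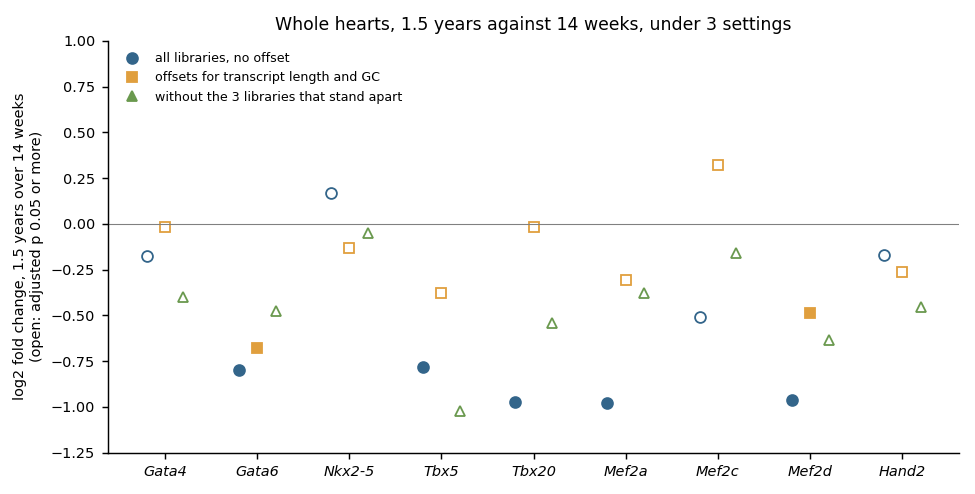
Log2 fold change of whole hearts at 1.5 years over 14 weeks for 9 genes under 3 settings: all libraries, offsets for transcript length and GC content, and without the 3 libraries that stood apart. Filled symbols passed an adjusted p under 0.05. With all libraries 5 genes passed, with the offsets 2 (Gata6 and Mef2d), and without the 3 libraries 0.

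Hand1, a factor of the left ventricle and outer curvature of the embryonic heart, was found only in neonatal hearts and in 1 fibroblast sample. The hearts of postnatal day 1 had 118, 343, and 280 counts, or 1.45, 3.94, and 3.33 CPM. All 12 later hearts had 0 counts. Against the limit of 3 counts per library, the neonatal level was at least 59.3-fold higher than at 4 weeks, 40.6-fold than at 14 weeks, 43.7-fold than at 1 year, and 50.2-fold than at 1.5 years. Since the gene passed the filter only through the neonatal hearts and was compared with samples at 0, the calls it received in hearts and at day 1 between the tissues are no test of a change, and the counts are given as a description. Among fibroblasts, 27 counts in replicate 6 of 14 weeks were the only ones, and the gene did not pass the filter on low counts there. Neonatal hearts were at least 79.6-fold higher than neonatal fibroblasts.

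Hand2, a factor of the right ventricle that also acts in epicardial derivatives, fell after birth in both tissues. In fibroblasts it was at 27.6, 42.8, and 77.7 CPM at postnatal day 1 and at 14.6, 24.6, and 25.1 CPM at 4 weeks. Those groups did not overlap, although the neonatal samples spread widely. Later fibroblasts lay between 20.9 and 28.9 CPM. The fall was -1.18 on the log2 scale (SE 0.32, adjusted p = 0.0230). It was not called without replicate 1 of day 1 (-0.69, adjusted p = 0.0964) or replicate 3 of 4 weeks (-0.98, adjusted p = 0.0788). Whole hearts were at 119.6, 139.1, and 147.7 CPM at day 1 and at 54.2, 71.3, and 98.0 CPM at 4 weeks (-0.84, SE 0.22, adjusted p = 0.0119), and the fall was -1.11 without the 3 libraries that stood apart (adjusted p = 0.000459). It was not called without replicate 1 of day 1 (-0.78, adjusted p = 0.0506) or replicate 1 of 4 weeks (-0.66, adjusted p = 0.0575). Markers of the epicardium were also lower at 4 weeks. The summed level of 5 epicardial markers, among them Wt1 and Upk3b, was 62.0 to 109.4 CPM in neonatal hearts and 33.6 to 57.5 CPM at 4 weeks, without overlap, and all 5 were lower (median log2 fold change -1.16). In fibroblasts the sum went from 9.81 to 25.0 CPM at day 1 to 2.53 to 18.7 CPM at 4 weeks, with overlap, all 4 markers tested were lower (median -2.90), and Msln was at 0 counts in every neonatal sample. No epicardial marker was called at this step in either tissue, but 1 of 5 was called lower in hearts with the length and GC offsets (6.9% of all genes). At 1.5 years against day 1, 2 of 5 were called lower in hearts (16.3% of all genes). There 1 was with the offsets and 0 without the 3 libraries. The part of these markers in the falls of Tbx20, Hand2, and the partner Tbx18 was not tested.

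Hearts then returned to 104.1, 123.7, and 136.8 CPM of Hand2 at 14 weeks, above every 4-week sample, but the rise was not called (0.71, SE 0.22, adjusted p = 0.133). It was called without the 3 libraries that stood apart (0.95, adjusted p = 0.0115) and with the length and GC offsets (0.86, adjusted p = 0.0293). They were at 82.5 ± 16.9 CPM at 1 year and 112.3 ± 27.1 CPM at 1.5 years (SD, n = 3), and the level at 1.5 years was not distinguished from that at day 1 (-0.31, SE 0.22, adjusted p = 0.301). Fibroblasts had between 18.4% and 36.5% of the heart level of Hand2 at the 5 ages. Log2 fold changes ranged from -1.46 (SE 0.29, adjusted p = 0.000341) at day 1 to -2.44 (SE 0.35, adjusted p = 4.92e-06) at 14 weeks, and each was called in every alternative.

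**Figure D5:**
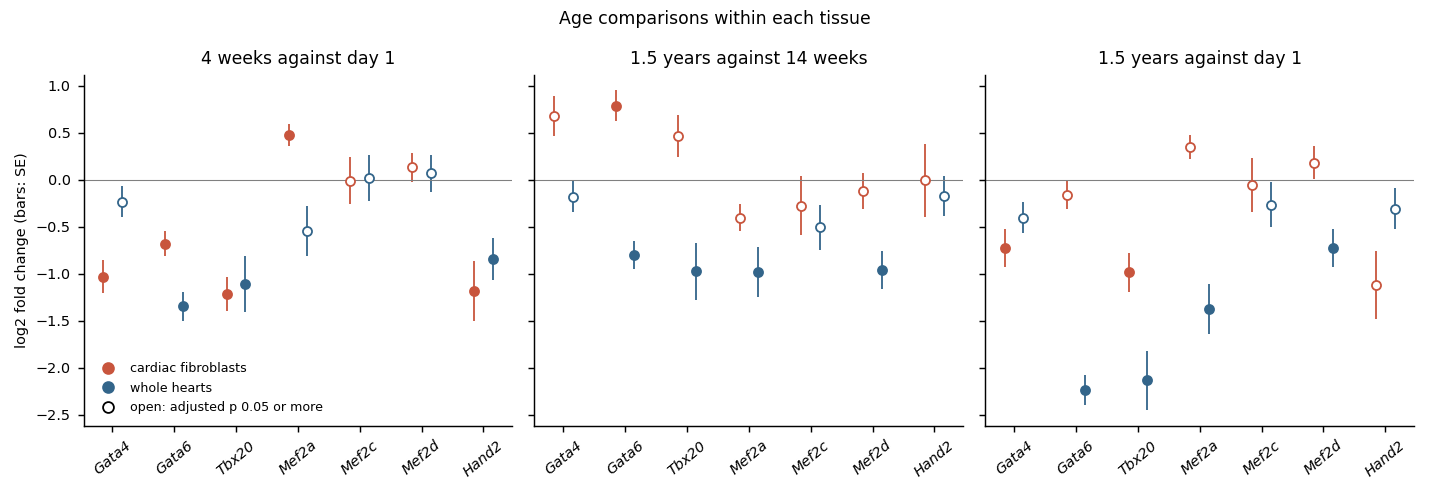
Log2 fold change with SE in 3 comparisons of ages, in cardiac fibroblasts and whole hearts, for 7 genes. Filled points passed an adjusted p under 0.05. From day 1 to 4 weeks Gata6, Tbx20, and Hand2 were below 0 in both tissues, and from 14 weeks to 1.5 years Gata6 was above 0 in fibroblasts and below 0 in hearts. Nkx2-5 and Hand1 are left out because of samples at 0, and Tbx5 because of its spread in fibroblasts.

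Fibroblasts and whole hearts differed in 8 of 10 members at postnatal day 1 (7 of 9 without Hand1), where 32.3% of all genes were called, and in 8 of 10 at 4 weeks (36.1%). They differed in 6 of 10 at 14 weeks (34.8%), 7 of 10 at 1 year (32.4%), and 5 of 10 at 1.5 years (38.9%). Members lower in fibroblasts numbered 7 (6 without Hand1), 7, 5, 6, and 3 in that order of ages, where 18.7%, 18.6%, 17.7%, 15.7%, and 17.9% of all genes were lower. Members higher numbered 1 at each of the first 4 ages, where 13.6%, 17.5%, 17.1%, and 16.7% of all genes were higher, and 2 at 1.5 years (21%). Levels per kilobase of the longest annotated transcript compare genes only roughly. The isoform expressed is not known, and libraries differed in their trend with transcript length. On that scale the highest level in neonatal fibroblasts was that of Tbx20, at 91.1 CPM per kilobase. It was followed by Gata4 at 61.6, Gata6 at 39.15, and Hand2 at 21. In neonatal hearts the order was Nkx2-5 at 109.2, Gata6 at 68.4, Hand2 at 57.6, Gata4 at 56.3, and Mef2a at 46.6 CPM per kilobase. At 1.5 years fibroblasts had Tbx20 at 46.3, Gata4 at 37.4, and Gata6 at 35.1, and hearts had Nkx2-5 at 96.3, Hand2 at 47.8, and Gata4 at 43.7 CPM per kilobase.

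A list of 41 partners of these factors, among them other T-box, homeobox, HEY, TEAD, and myocardin genes and their cofactors, was followed beside them, of which 38 were counted. From postnatal day 1 to 4 weeks, 1 of 37 tested rose and 9 fell in fibroblasts, beside 9.28% and 6.2% of all genes, with a median log2 fold change of -0.31. Tcf4, an E protein that pairs with HAND factors, rose from 369 to 514 CPM (log2 fold change 0.50, SE 0.11, adjusted p = 0.00876). Among the falls, Prox1 went from 28.9 to 5.24 CPM (-2.43, SE 0.41, adjusted p = 0.00138) and Tbx18, an epicardial T-box gene, from 74.9 to 28.3 CPM (-1.38, SE 0.20, adjusted p = 0.000423). Tbx2 fell by 0.97 and Meis2 by 0.87 on the log2 scale. By 1.5 years 0 partners had risen and 7 had fallen, beside 9.86% and 6.46% of all genes. The log2 fold changes were -2.10 for Tbx18, -2.06 for Prox1, -1.21 for Tead1, which encodes a DNA-binding partner of the Hippo pathway, and -0.90 for Tbx2 (adjusted p = 0.0497).

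In whole hearts 2 of the 38 partners rose and 4 fell from day 1 to 4 weeks, a share no higher than the 18.2% of all genes called in this step. Hey2, a Notch target of the compact ventricle, fell from 77.1 to 5.38 CPM (log2 fold change -3.82, SE 0.87, adjusted p = 0.00510) and Tbx18 from 20.99 to 3.83 CPM (-2.43, SE 0.45, adjusted p = 0.000979). Foxp1 was at -0.98 and Meis1 at -0.69, both called. Srf, whose product binds GATA4 and NKX2-5 at muscle promoters, rose from 126.4 to 214.7 CPM (0.78, SE 0.21, adjusted p = 0.0159), and Hdac4, a repressor of MEF2 proteins, from 13.9 to 26.9 CPM (0.98, SE 0.20, adjusted p = 0.00199). By 1.5 years 0 had risen and 18 had fallen, beside 15.6% and 16.3% of all genes, with a median log2 fold change of -0.78 against -0.15 over all genes. Without the 3 libraries that stood apart 0 had risen and 11 had fallen, and with the length and GC offsets 3 had risen and 10 had fallen. Hey2 (-4.51), Tbx2 (-1.99), Tbx18 (-1.94), and Casz1 (-1.81) fell most among partners of at least 1 CPM. From 14 weeks to 1.5 years 0 rose and 11 fell, beside 12.8% of all genes called and 7.86% lower. Without the 3 libraries 2 fell, and 3 fell and 1 rose with the offsets. The mean log2 CPM of the partners at 1.5 years was 4.34 in replicate 1, within the 4.32 to 4.51 of 14 weeks, and 3.87 and 3.43 in replicates 2 and 3. Across genes the fold change of this step followed transcript length (Spearman's rho -0.56).

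Of 22 known targets of the factors, 10 are also in the lists of cardiomyocyte or atrial markers used above. From postnatal day 1 to 4 weeks, 0 of 22 rose and 7 fell in fibroblasts, where 9.28% of all genes rose and 6.2% fell, with a median log2 fold change of -2.17, beside the fall of the cardiomyocyte marker sum given above. In whole hearts 11 rose and 2 fell, where 12.1% of all genes rose and 6.1% fell, with a median of 0.52. Without the 3 libraries that stood apart, 10 rose and 6 fell in hearts. Myh6, the adult myosin heavy chain, went from 12450 ± 2037 to 33000 ± 4037 CPM in hearts (SD, n = 3; log2 fold change 1.43, SE 0.17, adjusted p = 1.11e-05) and from 227.6 ± 47.2 to 22.8 ± 13.5 CPM in fibroblasts (SD, n = 3; -3.28, SE 0.72, adjusted p = 0.00726). Nppa, which encodes atrial natriuretic peptide, fell in hearts from 403.5, 778.4, and 1421 CPM to 102.9, 135.1, and 363.5 CPM (-2.09, SE 0.56, adjusted p = 0.0148). It is 1 of 5 atrial markers, whose summed level was 755.5 to 1814 CPM in neonatal hearts and 157.1 to 576.2 CPM at 4 weeks, without overlap. All 5 were lower (median log2 fold change -1.46), Nppa alone being called. Without the 3 libraries that stood apart 3 of the 5 were called lower (median -2.865), beside 7.69% of all genes. With the length and GC offsets 1 was called lower (median -1.768), beside 6.9% of all genes. The part of atrial tissue in the heart samples was not tested. Actc1, cardiac actin, was at 0.55 in hearts (SE 0.17, adjusted p = 0.0274) and at -2.72 in fibroblasts (SE 0.64, adjusted p = 0.0110). Over the whole span 12 targets rose and 3 fell in hearts (15.6% and 16.3% of all genes), and 1 rose and 7 fell in fibroblasts (9.86% and 6.46%).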

How the data were processed

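RNA-Seq was analysed in 12 samples of PDGFRα-sorted cardiac fibroblasts and 15 whole heart samples, grouped by tissue and age from their labels. The authors sequenced single-end reads of 65 bp, mapped them to mm10 with STAR 2.5.3a, and deposited raw counts per gene, without normalization. The annotation and strand setting are not given in the sources used here. Values were whole numbers, and none of the 24 same-group pairs held identical counts.

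Ages were compared within each tissue, and the tissues and interactions in a fit of all 27 samples, with edgeR 4.0.16 in R 4.3.3 (filterByExpr, TMM scaling, quasi-likelihood F test, Benjamini-Hochberg adjustment over all genes tested, call at adjusted p under 0.05). The filter left 18759 genes in fibroblasts, 17995 in hearts, and 20650 in the joint fit. SE was computed as the absolute log2 fold change over √F. Log2 CPM used a prior count of 2, and the limit of detection was 3 counts per library. Total counts ranged from 46091271 to 76758831, at which 3 counts are 0.0322 to 0.0903 CPM. Coordinates and the longest transcript of each gene came from GENCODE M21, in which 21796 symbols were found, and promoters from RefSeq on GRCm38.p6.

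The 10 members and all lists were chosen with earlier results of these data known. Named genes are all members, up to 4 called partners with the largest rise and fall from postnatal day 1 to 4 weeks or 1.5 years with a mean of at least 1 CPM, the targets Nppa, Myh6, and Actc1, and, per called member and tissue, the 3 genes most alike in centred log2 CPM. Alternatives were DESeq2 1.42.0, median-of-ratios or library size scaling, dropping the filter or raising it to 10 counts in each sample, offsets for transcript length and GC content, the replicate number as a block, only the groups compared, and each sample left out. The fit without 3 whole heart libraries and the interactions to 1.5 years were added after the data were seen. In simulated data with 200 genes changed 4-fold, edgeR recovered 66.0% in fibroblasts, 70.5% in hearts, and 48.5% for the interaction. These genes had a mean of at least 1 CPM and were changed at 4 weeks, where groups held 3 samples. The shares do not describe smaller changes or the fibroblast ages with 2 samples.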

Additional observations from a re-analysis of the deposited data

Results flagged for a closer look

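The first 6 results are listed because the change with age differed between fibroblasts and whole hearts in a test of the difference itself, an interaction over all 27 samples in edgeR. The tests to 1.5 years were added after the data were seen. Values are log2 differences, fibroblasts minus hearts. From postnatal day 1 to 4 weeks this was Nkx2-5, at -2.73 (SE 0.65, adjusted p = 0.0108), where fibroblasts had 4 to 87 counts at 4 weeks. From 14 weeks to 1.5 years it was Gata6, at 1.57 (SE 0.24, adjusted p = 0.000711), higher with age in both fibroblast samples and lower in all 3 hearts. Over the whole span it was Gata6 at 2.04 (SE 0.22, adjusted p = 2.18e-06), Nkx2-5 at -8.36 (adjusted p = 6.60e-05), Mef2a at 1.70 (SE 0.34, adjusted p = 0.00157), and Mef2d at 0.88 (SE 0.28, adjusted p = 0.0395). The value of Nkx2-5 rests on 0 and 1 counts in the oldest fibroblasts, depends on the prior count, and is no bound.

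Gata4 and Hand2 are listed because, from 14 weeks to 1 year, every fibroblast sample lay above and every heart sample below those of the earlier age. For Gata4 the log2 fold change was 0.59 in fibroblasts and -0.57 in hearts, and for Hand2 it was 0.27 and -0.57. The fibroblast samples of 14 weeks stood apart in base composition, and with the length and GC offsets the fibroblast values were 0.35 and -0.10. None of the 4 passed the adjusted p within its tissue, and the difference between the tissues was not tested.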

How the results depend on the processing

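Of 64 calls of a member in a comparison of 2 groups or an interaction, 34 were kept in every setting run. The 64 include the calls of Hand1, and that of Nkx2-5 between ages of fibroblasts, which are no test of a change. Counts of called members that moved by over 1.5 times follow, the reported count first. In fibroblasts, 1 year against 14 weeks had 0 calls, but 1 with median-of-ratios scaling, library size only, at least 10 counts in every sample, or DESeq2, and 2 with only the 2 ages compared. The late comparison, 1.5 years against 14 weeks, had 1, but 0 with the length and GC offsets and 3 with DESeq2, and against postnatal day 1 it had 3, but 5 with DESeq2. In hearts, 4 weeks against postnatal day 1 had 4, but 8 with library size only, and 14 weeks against 4 weeks had 0, but 1 with the offsets or without the 3 libraries that stood apart. For hearts, 1 year against 14 weeks had 0, but 1 with the offsets, without the 3 libraries, or with DESeq2, and 3 with only the 2 ages compared. Hearts of 1.5 years against 14 weeks had 5, but 2 with library size only or the offsets and 0 without the 3 libraries, and against postnatal day 1 had 6, but 10 with library size only. Fibroblasts against hearts had 8 at 4 weeks, but 4 with library size only, and 5 at 1.5 years, but 3 with at least 10 counts in every sample and 9 with the offsets. The interaction to 4 weeks had 1, but 2 with median-of-ratios scaling, no filter, the offsets, DESeq2, or without the 3 libraries, and 3 with library size only or at least 10 counts. The interaction from 14 weeks to 1.5 years had 1, but 2 with at least 10 counts or DESeq2. A filter at 10 counts tests fewer genes, and otherwise the cause was not tested. Library size scaling moved the median log2 fold change over all genes, from -0.15 to -0.75 for hearts of 1.5 years against postnatal day 1 and from 0.044 to 0.71 for fibroblasts against hearts at 14 weeks.

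Counts over all genes also moved. In fibroblasts, 14 weeks against 4 weeks had 726 (DESeq2 1665, offsets 358). At 1 year against 14 weeks there were 334 (DESeq2 1169, offsets 79, at least 10 counts 569, only the 2 ages 2004, replicate block 0 with or without the offsets), and at 1.5 years 511 (DESeq2 1406, offsets 254, at least 10 counts 808, only the 2 ages 818, block 20, block with offsets 7). Against postnatal day 1 there were 3061 (only the 2 ages 2030), and among the 5 ages 3731 (DESeq2 5855). In hearts, 14 weeks against 4 weeks had 289 (DESeq2 880, library size 496, without the 3 libraries 653). At 1 year against 14 weeks there were 175 (DESeq2 905, library size 87, at least 10 counts 342, only the 2 ages 1458, without the 3 libraries 1055, block 45, block with offsets 114), and at 1.5 years 2298 (DESeq2 3546, offsets 730, block with offsets 525, without the 3 libraries 480). The interactions had 1475 to 4 weeks (DESeq2 2783, block 402, block with offsets 556), 559 from 14 weeks to 1.5 years (DESeq2 1406, offsets 240, without the 3 libraries 296), and 2818 over the whole span (without the 3 libraries 1474).

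Whether replicate numbers pair the samples could not be decided, as deviations were centred within small groups. The median correlation of same-numbered deviations was 0.000161 across ages of fibroblasts, -0.0332 across ages of hearts, and -0.00206 between the tissues. Between the tissues only 6 pairs shared a number, since fibroblasts of the later ages are numbered differently from hearts. With the replicate block, called members were 0 at 1.5 years against 14 weeks in fibroblasts (0 also with the offsets), 5 between the tissues at 4 weeks, and 0 in the interaction to 4 weeks (0 also with the offsets). With the block and the offsets there was 1 in hearts at 14 weeks against 4 weeks and 1 at 1.5 years against 14 weeks.

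Mef2c reversed in hearts of 1.5 years against postnatal day 1 with the offsets (0.77) and with the block and the offsets (0.77), and in the interaction over that span with the offsets (-1.01, adjusted p = 0.0237). With the offsets, Mef2a and Mef2d between the tissues at 1.5 years reversed to -0.80 and -0.79.

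With 1 sample left out in turn, called members ranged in fibroblasts from 4 to 6 among the 5 ages, 4 to 5 at 4 weeks against postnatal day 1, 0 to 0 at 14 weeks against 4 weeks, 0 to 1 at 1 year (1 without replicate 1 of postnatal day 1 or replicate 3 of 4 weeks) and 0 to 1 at 1.5 years against 14 weeks (0 without any 1 sample of those ages), and 0 to 4 at 1.5 years against postnatal day 1, with 0 without replicate 5 of 1.5 years. The corresponding ranges in hearts were 6 to 9, 2 to 4, 0 to 0, 0 to 0, 2 to 5, and 5 to 6, with 2 at the early step without replicate 2 or 3 of postnatal day 1, and, for 1.5 years against 14 weeks, 2 without replicate 1 of 14 weeks and 3 without replicate 2 or 3 of either age. Between the tissues they were 7 to 9, 6 to 8, 5 to 6, 4 to 7, and 4 to 5 from the youngest to the oldest age, with 4 at 1 year without fibroblast replicate 4. For the interactions they were 1 to 3 to 4 weeks, 1 to 2 from 14 weeks to 1.5 years, and 3 to 5 over the whole span. Where 1 sample of an age remained, it was assumed to vary like the other groups.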

Other observations

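For each member called among the 5 ages, the 3 genes with the nearest profile were found as a description, by the root mean square (RMS) difference in log2 CPM after centring each gene on its own mean. Over the 12 fibroblast samples and 13055 genes, Tbx20 was nearest to Gli3, a transcription factor of Hedgehog signalling (RMS 0.152, against an SD of 0.628 for Tbx20 itself), Csrp1, and Chsy1. Gata6 was nearest to Lmo4 (RMS 0.121), Gnas, and Cmtm3, and Gata4 to Cmtm3 (RMS 0.198), Trim28, and Phb2. Mef2a was nearest to Myo6 (RMS 0.0954), Tcf4, and Spred2, and Tcf4 was also the only partner that rose in fibroblasts in the first 4 weeks. Nkx2-5 was below the level required for this comparison.

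Over the 15 whole hearts and 13383 genes, Gata6 was nearest to Nhsl1 (RMS 0.238, against an SD of 0.747), Arvcf, and Ralgps2, and Tbx20 to Topbp1 (RMS 0.199), Nsd2, and Azin1. Mef2a was nearest to Rc3h2 (RMS 0.158), Kidins220, and Tcf20, and Mef2d to Ankrd11 (RMS 0.139), Gigyf2, and Rnf44. Gata4 and Nkx2-5 shared 1 gene, Ywhah, among their nearest. Tbx5 was nearest to Zfp30 (RMS 0.188) and Hand2 to Chn1 (RMS 0.248). Profiles of one tissue share libraries, and in whole hearts they also share the trend with transcript length.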
